A study of Mus musculus with 17 samples.

Results

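Bfsp1, Bfsp2, Vim, Sptan1, Sptbn1, Ank2, Tmod1, Ppl and Ezr, 9 genes of the lens beaded filament and of the skeleton under the plasma membrane, were examined for islands of histone H3.3 in newborn mouse lens. They were chosen by name from 21938 protein-coding genes and measured over the gene body of GENCODE vM21 and 5 kb on each side, here called the window. H3.3 ChIP-seq had been performed on microdissected lens epithelium and lens fibers of CD1 mice, with an antibody against H3.3 and 2 biological replicates per compartment, and no other genotype and no treatment are named for these libraries. Each sample pooled 150 lenses according to the sample labels, while the study's methods give a different number, so that no value belongs to a single animal, and the age is given as day 1 after birth in the sample titles and as P0.5 in the protocol. A pooled input and the bisulfite libraries of the same series were not analysed here.

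Histone H3.3 is the H3 variant that cells can deposit without replicating their DNA, and it gathers at active promoters, at enhancers and over the bodies of genes that are being transcribed. Lens fibers arise from the epithelial cells at the lens equator, elongate, stop dividing and lose their organelles. During this process they build beaded filaments from filensin and phakinin, which are found in no other tissue, and line their membranes with a lattice of spectrin, ankyrin, tropomodulin-capped actin and linker proteins that keeps the hexagonal packing of the cells.

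An island is a stretch in which more ChIP reads had been found than expected from the background. The epithelium libraries held 10389 and 14434 islands with 1331369 and 1430373 reads, and the fiber libraries held 27059 and 35940 islands with 5041885 and 5359085 reads. Islands covered 1.66% and 1.79% of the assembled chromosomes in epithelium and 6.52% and 6.89% in fibers, and their median length was 3800 and 3000 bp in epithelium and 5200 and 4000 bp in fibers. Pairs of values for a compartment are given with replicate 1 first throughout. Only reads inside islands are listed, sequencing depth per library is unknown, and a window without an island is therefore one in which none had been called, not one without H3.3. In a bulk sample, fewer cells carrying H3.3 at a gene and less H3.3 per cell cannot be told apart.

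The compartments were checked with marker genes measured in the same way. Of 10 lens fiber markers, among them Mip and crystallin genes, 9 had a higher covered share (the percent of the window's bases inside islands) in both fiber libraries than in both epithelium libraries, and Lgsn had no island. Their median covered share was 19.3% and 48.6% in epithelium and 100% in each fiber library. Of 8 lens epithelium markers, among them Foxe3 and Pax6, none was higher in the epithelium libraries, 6 were higher in both fiber libraries and 2 overlapped between compartments, with medians of 9.97% and 18.0% in epithelium and 55.0% and 63.4% in fibers. Over all protein-coding genes, 45.0% were higher in both fiber libraries, and 1.04% of those with an island in any library were lower. Every difference between the compartments has to be read beside the larger number of islands in fibers.

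The starts of the genes differed in their islands and in base composition, and the 250 bases upstream of 4 of them, from RefSeq on GRCm38.p6, are shown for that reason. Bfsp1 and Sptbn1 had no island in epithelium, the inner Bfsp2 start lay in islands of fibers but not of epithelium, and Ezr lay in islands of all 4 libraries at its start. All 4 genes are on the minus strand. Their upstream regions are chr2:143863174-143863423 for Bfsp1, chr9:103449177-103449426 for Bfsp2, chr11:30198258-30198507 for the inner of 2 Sptbn1 starts and chr17:6782781-6783030 for Ezr. Capitals mark matches on either strand to TATAAA (a core promoter element), CCAAT (bound by the factor NF-Y), GGGCGG (GC box), TGCTGA (part of the sequence bound by Maf factors) and TGACTCA (AP-1 site), and the last base is the one before the start.
Bfsp1: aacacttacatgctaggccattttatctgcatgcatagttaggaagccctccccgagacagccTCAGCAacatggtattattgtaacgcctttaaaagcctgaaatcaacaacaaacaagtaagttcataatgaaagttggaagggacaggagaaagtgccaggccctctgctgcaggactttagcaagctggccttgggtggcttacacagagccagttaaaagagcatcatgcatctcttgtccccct
Bfsp2: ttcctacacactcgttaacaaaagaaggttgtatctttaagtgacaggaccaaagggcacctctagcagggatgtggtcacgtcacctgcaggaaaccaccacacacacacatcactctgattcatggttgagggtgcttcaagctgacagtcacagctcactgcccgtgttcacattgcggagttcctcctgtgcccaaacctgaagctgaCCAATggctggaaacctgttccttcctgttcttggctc
Sptbn1: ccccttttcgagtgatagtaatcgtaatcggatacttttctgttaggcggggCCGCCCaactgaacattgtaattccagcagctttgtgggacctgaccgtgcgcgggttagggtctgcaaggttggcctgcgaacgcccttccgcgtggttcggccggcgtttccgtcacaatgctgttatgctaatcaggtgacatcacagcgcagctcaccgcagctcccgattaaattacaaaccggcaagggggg
Ezr: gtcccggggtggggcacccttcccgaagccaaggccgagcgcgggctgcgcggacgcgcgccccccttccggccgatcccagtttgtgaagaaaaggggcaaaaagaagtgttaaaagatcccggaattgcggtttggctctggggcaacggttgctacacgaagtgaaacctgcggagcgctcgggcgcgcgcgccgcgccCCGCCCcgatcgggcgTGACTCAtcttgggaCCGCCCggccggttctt

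The CG dinucleotide occurred 2 times upstream of Bfsp1, 4 times upstream of Bfsp2, 20 times upstream of this Sptbn1 start and 32 times upstream of Ezr, against a median of 6 over 32851 RefSeq promoters. Bfsp1 had 1 match to TGCTGA, which 16.1% of all promoters contain, and none to the other 4 motifs. Bfsp2 had 1 match to CCAAT, found in 33.8%. The other RefSeq start of Sptbn1 had 2 CG and no motif match upstream. The Sptbn1 start shown had 1 GC box and Ezr had 2, a motif found in 32.7%, and Ezr had the only AP-1 site among the members, found in 4.46%. Among the starts not shown, Sptan1 had 5 GC boxes and 31 CG, and Tmod1 had 4 and 17. CCAAT was also matched upstream of Vim and of the 2 outermost Ank2 starts, and TGCTGA upstream of the innermost Ank2 start. TATAAA, which 12.4% of promoters contain, was matched upstream of Vim and of the outermost Ank2 start. Of the 9 genes, 8 had an entry in the RefSeq table, with 12 starts in all, and Ppl had none.

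All 9 genes had islands in both fiber libraries, and in fibers more than 50% of every window was covered. Summed over the 9 windows, islands covered 98.2 and 111 kb in epithelium and 820 and 870 kb in fibers. This was 8.38% and 9.46% of the windows in epithelium and 70.0% and 74.3% in fibers, whereas the windows of all protein-coding genes were covered by 4.02% and 4.23% in epithelium and by 14.7% and 15.1% in fibers. The covered share was higher in both fiber libraries than in both epithelium libraries for 9 of 9 genes, where 45.0% of all protein-coding genes met this criterion. It was lower in both fiber libraries for 0 of 9, against 1.04% of the genes with an island in any library. An island in both fiber libraries was found for 9 of 9 genes (52.3% of all genes) and in both epithelium libraries for 7 of 9 (24.7%). A covered share above 50% in both fiber libraries was found for 9 of 9 (13.9%).

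The median difference between the mean covered shares of fibers and epithelium was 62.5 percentage points over the 9 genes and 4.72 over all protein-coding genes. It was 16.0 over the 14147 genes with an island in any library. In descending order the differences were 95.6 points for Bfsp1, 72.0 for Sptbn1, 63.97 for Sptan1, 63.7 for Vim, 62.5 for Ank2, 57.4 for Tmod1, 56.3 for Bfsp2, 49.0 for Ppl and 45.7 for Ezr. Among all protein-coding genes, 6 had a larger difference than Bfsp1, 212 a larger one than Sptbn1 and 1850 a larger one than Ezr. Bfsp1 and Sptbn1, and Ank2 and Tmod1, lay farther apart in this order than the SD between replicates in either compartment of either gene, and the other neighbours lay closer together than the larger of these SDs. Within 5 kb of the gene start the order changed, with differences of 89 points for Tmod1 and 12 for Ank2. For each gene the exact two-sided permutation test over the 4 libraries gave p = 0.33, the smallest that 2 against 2 libraries allow, so that no single gene can pass a threshold of 0.05.

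**Figure D1:**
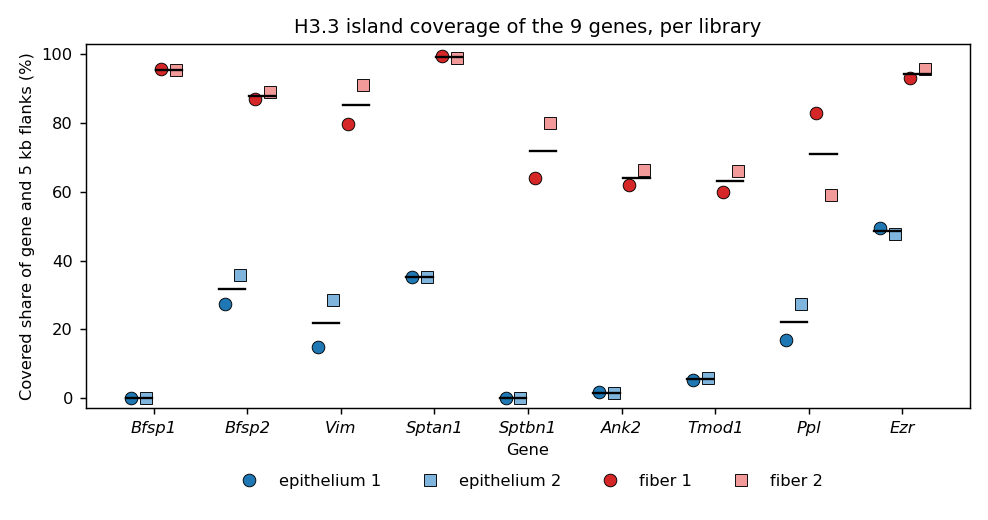
The vertical axis gives the covered share of the gene and its 5 kb flanks in percent for the 9 genes, 1 symbol per library (circles for replicate 1, squares for replicate 2, blue for epithelium, red for fiber) and a horizontal bar for the mean of 2. At every gene both fiber symbols lie above both epithelium symbols, and the replicates are farthest apart at Ppl in fibers (83.0% and 59.2%).

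Bfsp1 encodes filensin, which has a rod domain like other intermediate filament proteins and, with phakinin, forms the beaded filament. The gene (ENSMUSG00000027420.13) lies on the minus strand at chr2:143826528-143863173 on mm10, the build of all coordinates given here, and is 36.6 kb long. Neither epithelium library had an island in its window. The fiber libraries each had 1 island that contained the whole gene body, from 143811401 to 143866200 with 2073 reads and from 143811001 to 143866000 with 1942 reads. These islands were 54800 and 55000 bp long, longer than 99.9% of the islands of their libraries, and held 37.8 and 35.3 reads per kb, more than 96.6% and 91.1% of all islands. The covered share was 95.8% and 95.3%, and 99.6% of the bases covered in either fiber library were covered in both.

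The absence of islands in epithelium was not limited to Bfsp1. The stretch without an island that contained it ran over 6.82 Mb in epithelium replicate 1, with 15 protein-coding genes inside, and over 1.12 Mb with 4 genes in replicate 2. Of the stretches between islands, 64 of 10368 and 429 of 14413 were at least as long. In the same intervals the fiber libraries had 19 and 27 islands and 7 and 9 islands. Of the 75-nt stretches of the window, 0.548% occur elsewhere in the genome, and the share was between 0.241% (Ezr) and 2.11% (Ank2) over the 9 genes.

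Bfsp2 encodes phakinin (CP49), the partner of filensin. It lies on the minus strand at chr9:103424924-103480420 (ENSMUSG00000032556.11). The covered share was 27.5% and 35.7% in epithelium and 86.9% and 89.0% in fibers, so that Bfsp2, unlike its partner gene, had islands in all 4 libraries. In epithelium there were 4 and 3 islands, the longest of 6800 and 13000 bp, whereas the longest in fibers measured 42200 and 39200 bp. Both epithelium libraries had an island over the outer start of the gene another within 12.4 to 17.2 kb downstream of it and a further one around the end of the gene. The inner start used by RefSeq, at 103449176, was 14025 and 13376 bp away from the nearest epithelium island and lay inside the longest island of both fiber libraries. Of the bases covered in any epithelium library, 99.3% were also covered in fibers, and 28.5 kb of the window were covered in both fiber libraries and in neither epithelium library. Tmem108 overlaps the window with 2474 bp.

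Vim encodes vimentin, the intermediate filament protein that is shared by epithelium and fibers. It is the shortest of the 9 genes (8900 bp, plus strand, chr2:13573927-13582826, ENSMUSG00000026728.9). The covered share was 14.8% and 28.6% in epithelium and 79.8% and 91.0% in fibers. Each epithelium library had a single island over the start, of 2800 and 5400 bp, which ended 2273 and 2673 bp inside the gene. In fibers, islands of 14200 and 17200 bp began upstream of the gene, at 13568201 and 13569801, and ran to 8473 bp inside the gene and beyond its end, respectively. The last 50% of the gene's length was 0% covered in epithelium and 90.4% and 100% covered in fibers, and the island bases of epithelium lay entirely inside those of fibers.

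**Figure D2:**
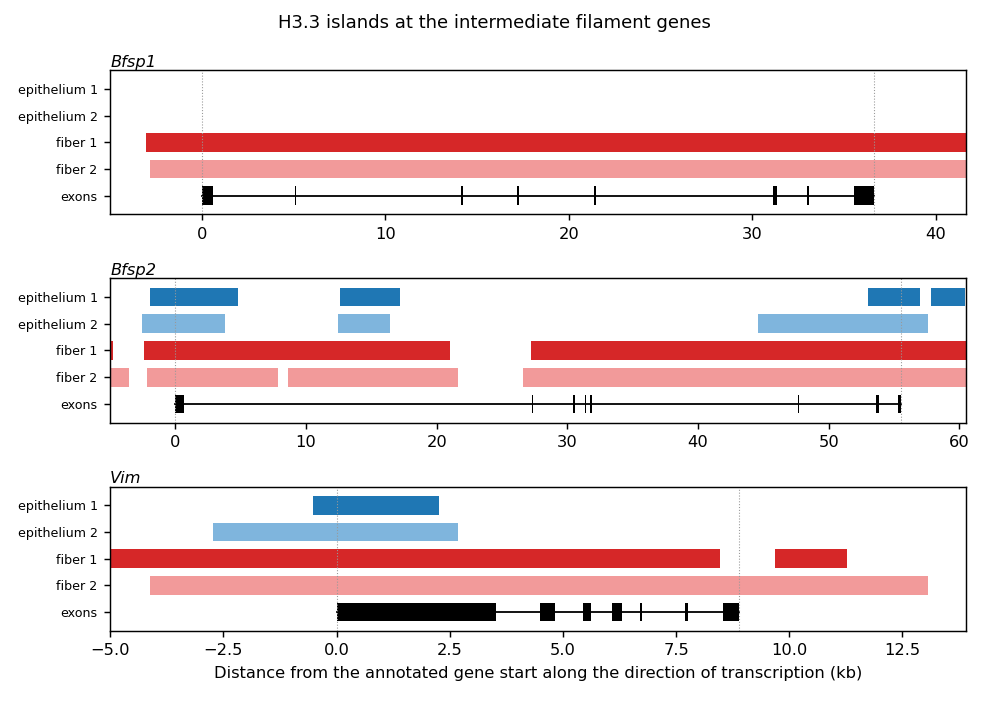
Islands at Bfsp1, Bfsp2 and Vim are drawn as bars, 1 row per library, over distance from the annotated gene start in kb along the direction of transcription, with the exons of all transcripts merged in black and dotted lines at the gene start and end. Bfsp1 has bars only in the fiber rows, Bfsp2 has separate bars at the start, inside and at the end of the gene in epithelium, and at Vim the epithelium bars stop within 2673 bp of the start while the fiber bars run to 8473 bp inside the gene in replicate 1 and past its end in replicate 2.

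Sptan1 encodes the alpha subunit of the spectrin that lies under the membrane of nonerythroid cells, and Sptbn1 encodes a beta subunit that pairs with it. Sptan1 (plus strand, chr2:29965560-30031451, ENSMUSG00000057738.13) was covered by 35.1% and 35.3% in epithelium and by 99.4% and 98.9% in fibers. The epithelium libraries had 5 and 7 islands, none longer than 8200 bp, and the fiber libraries had a single island of 80400 bp and a pair of which the longer measured 58800 bp. Its fiber islands held 39.5 and 38.8 reads per kb, the highest of the 9 genes, against 28.6 and 28.0 in epithelium. Wdr34 overlaps the window of Sptan1 with 4906 bp, which were 100% and 62.3% covered in epithelium. Inside the gene body of Sptan1 the covered share was 26.2% and 30.8% in epithelium and 100% and 98.8% in fibers.

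Sptbn1 (minus strand, chr11:30099395-30268175, ENSMUSG00000020315.18) had no island in either epithelium library, whereas the fiber libraries had 11 and 20 islands with 3329 and 3958 reads that covered 64.1% and 79.9% of the window. The 2 fiber libraries differed in the first 50% of the gene's length (48.1% and 81.3% covered) more than in the last 50% (79.9% and 80.1%). Its exons were 100% and 83.2% covered and its introns 59.8% and 80.4%. Like Bfsp1, it lay in a long stretch without epithelium islands, of 9.21 Mb with 45 protein-coding genes in replicate 1 and 2.13 Mb with 14 genes in replicate 2. The fiber libraries had 56 and 82 islands in the first of these intervals and 21 and 34 in the other. Bfsp1 and Sptbn1 were the 2 members with an island in both fiber libraries and in neither epithelium library, a pattern found for 15.2% of all protein-coding genes. The alpha and beta spectrin genes thus differed in epithelium while both were mostly covered in fibers.

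Ank2 encodes ankyrin-B, which ties spectrin to membrane proteins. With 578 kb it is the longest of the 9 genes (minus strand, chr3:126921612-127499350, ENSMUSG00000032826.17). Islands covered 1.63% and 1.43% of the window in epithelium and 61.9% and 66.2% in fibers. The epithelium libraries had 2 and 3 islands there, all of them in introns, and the fiber libraries had 36 and 46. The first 10% of the gene's length, counted from the outermost start, was 0% and 2.68% covered in fibers, and the first long run of fiber islands began near the second of 4 RefSeq starts. The outermost start lay in an island of fiber replicate 2 alone, and the 3 inner starts lay in islands of both fiber libraries and of neither epithelium library.

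Tmod1 encodes tropomodulin 1, which caps the slow-growing ends of the short actin filaments in the spectrin lattice. It lies on the plus strand at chr4:46038935-46116032 (ENSMUSG00000028328.13). Coverage was 5.28% and 5.97% in epithelium and 60.0% and 66.0% in fibers. Tdrd7 and Tstd2 overlap the window, together with 7114 bp. The longest islands measured 2400 and 2800 bp in epithelium and 33400 and 35400 bp in fibers. Those of epithelium lay across the end of the gene and mostly beyond it. The long fiber islands reached over the start into the upstream gene Tdrd7, so that part of their length does not belong to Tmod1. Less than 50% of each lay in the window of Tmod1, and the longest fiber islands with at least 50% there measured 12200 and 14400 bp. With only such islands the difference in covered share between the compartments, 57.4 points, was 35.3. Inside the gene body the covered share was 2.98% and 3.67% in epithelium and 54.9% and 61.6% in fibers, and a start island was called in epithelium replicate 1 and not in replicate 2.

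Ppl encodes periplakin, a plakin that joins intermediate filaments to the membrane, and Ezr encodes ezrin, which joins actin to it. The lens holds both in a complex with periaxin (Prx) and desmoyokin (Ahnak). Ppl (minus strand, chr16:5086291-5132421, ENSMUSG00000039457.4) was covered by 16.7% and 27.4% in epithelium and by 83.0% and 59.2% in fibers. Its fiber replicates were the farthest apart of the 9 genes, at 71.1% ± 16.9 (SD, n = 2). Its longest islands overlapped between the compartments, with 4000 and 7600 bp in epithelium and 14800 and 7400 bp in fibers. In epithelium the last island of the gene ended 19820 and 27020 bp from the start, and the remainder of its 46131 bp had none.

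Ezr (minus strand, chr17:6738041-6782784, ENSMUSG00000052397.8) had the highest covered share of the 9 genes in epithelium, 49.6% and 47.8% in replicates 1 and 2, and reached 93.1% and 95.7% in fibers. The epithelium islands were 6 and 7 in number, and in replicate 1 none lay inside the gene beyond 38783 bp from the start. Those of fibers, 2 and 3, were up to 31600 and 27400 bp long. It had the smallest difference between the compartments of the 9 genes, 45.7 points, with 48.7% ± 1.29 in epithelium and 94.4% ± 1.84 in fibers (SD, n = 2). Of the flanks, 1 neighbouring gene overlaps each of these windows, Ubn1 that of Ppl and Sytl3 that of Ezr.

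**Figure D3:**
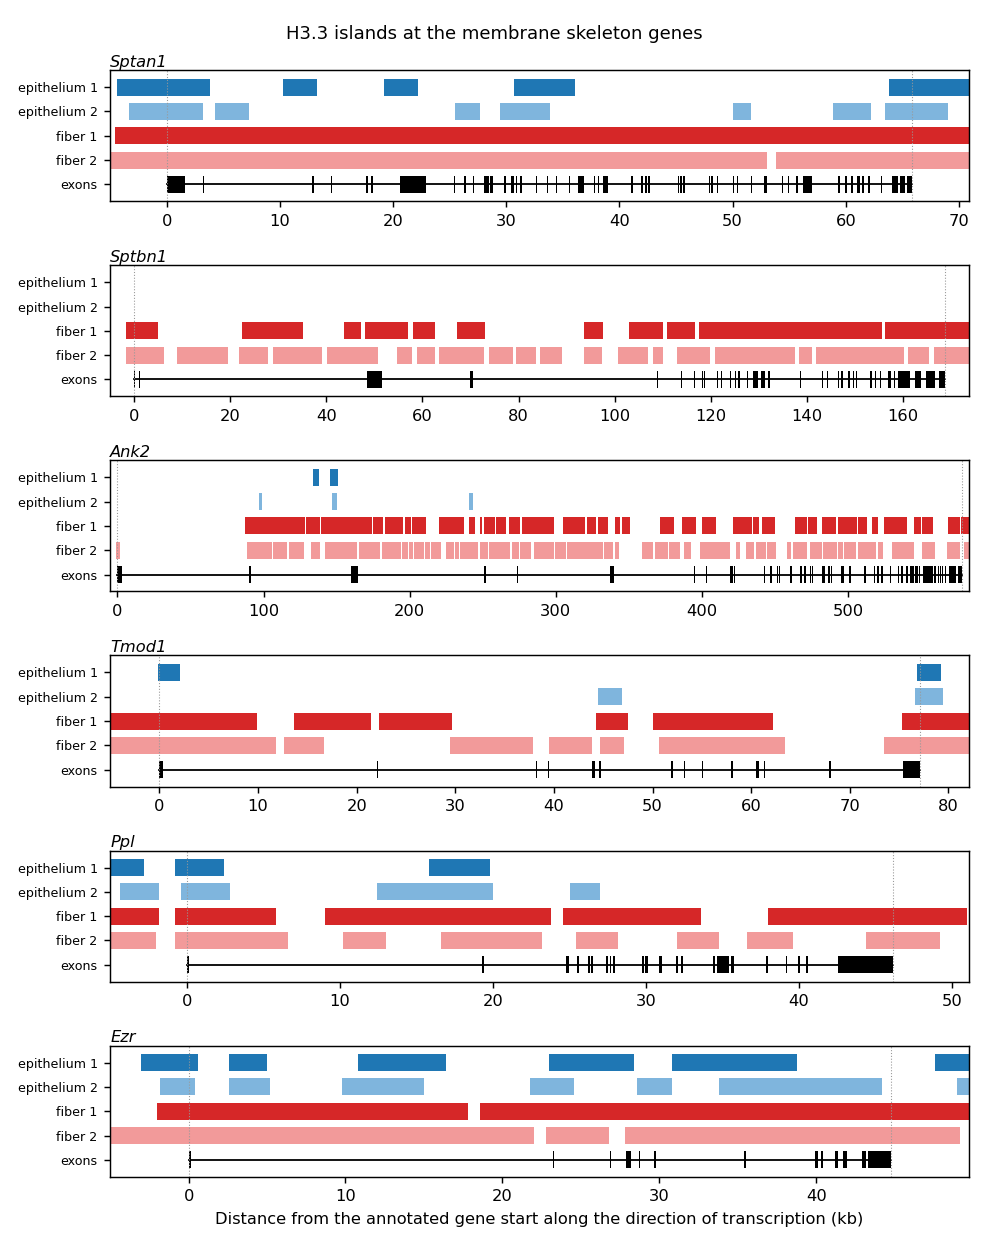
Islands at Sptan1, Sptbn1, Ank2, Tmod1, Ppl and Ezr are drawn as bars, 1 row per library, over distance from the annotated gene start in kb along the direction of transcription, with merged exons in black and dotted lines at the gene start and end. The fiber rows are filled almost without gaps at Sptan1 and Ezr and with gaps at the other genes, Sptbn1 has no bar in epithelium, and the first 10% of Ank2 is nearly empty in all 4 rows.

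The annotated gene start lay in an island for 6 and 5 of the 9 genes in epithelium, where this held for 12.4% and 14.6% of all protein-coding genes, and for 8 and 9 in fibers, where it held for 36.3% and 41.5%. Of the 12 RefSeq starts, 11 lay in islands of both fiber libraries (26.7% of 32851 RefSeq starts) and 3, those of Vim, Sptan1 and Ezr, in islands of both epithelium libraries (5.86%). The starts of a gene share its islands and are not independent. The longest island was longer in both fiber libraries than in both epithelium libraries for 8 of 9 genes, all but Ppl, where 44.2% of all protein-coding genes met this criterion. Its mean length in fibers was 1.91 times that in epithelium at Ppl, 3.21 times at Ezr, 3.83 times at Vim, 4.11 times at Bfsp2, 7.31 times at Ank2, 9.41 times at Sptan1 and 13.2 times at Tmod1, where the longest fiber islands reached upstream over Tdrd7. The longest epithelium islands at Tmod1 lay mostly past the end of the gene.

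Reads per kb were counted only inside islands that had passed the caller, without scaling for depth, and the median over all islands was 28.3 and 28.1 in epithelium and 27.4 and 27.5 in fibers although the reads in islands differed severalfold. How far the threshold of the caller sets these values was not tested. Over the 7 genes with islands in all 4 libraries, the ratio of mean reads per kb in fibers to that in epithelium had a median of 1.11 and ranged from 0.995 (Vim) to 1.39 (Bfsp2), beside a median of 1.02 over 5246 protein-coding genes with islands in all 4. Bfsp2 islands held 26.1 and 23.8 reads per kb in epithelium and 34.5 and 34.8 in fibers. At Ezr the values were 30.0 and 32.1 in epithelium and 36.7 and 37.3 in fibers. At both genes the compartments did not overlap, as at Sptan1. Ank2 (27.8 and 27.0 against 28.2 and 28.1) and Ppl (27.1 and 26.2 against 28.1 and 31.0) did not overlap either but differed by a few reads per kb or less.

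Vim and Tmod1 overlapped between the compartments. Vim islands held 33.9 and 26.5 reads per kb in epithelium and 28.9 and 31.2 in fibers, and those of Tmod1 held 30.9 and 25.4 in epithelium and 29.8 and 29.2 in fibers. In both, epithelium replicate 1 had the highest value of the 4 libraries and epithelium replicate 2 the lowest. Altogether 5 of 7 genes had more reads per kb in both fiber libraries (30.8% of all genes tested) and 0 of 7 had fewer (16.3%). Without epithelium replicate 1 the count, which leaving out a library cannot lower, was 7 of 7. It was 4 of 7 and 4 of 6 with the same number of islands by reads and by reads per kb, 3 of 7 with the longest island alone and 2 of 4 with islands of at least median density in their library. The ratio of Ank2 was 0.999 by reads, 0.971 for the longest island and 0.995 at median density, below 1 in each. Dividing the reads by each library's total in islands brought the count to 0 of 7 and the median ratio to 0.293, because that total was larger in fibers, where more of the genome was covered.

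**Figure D4:**
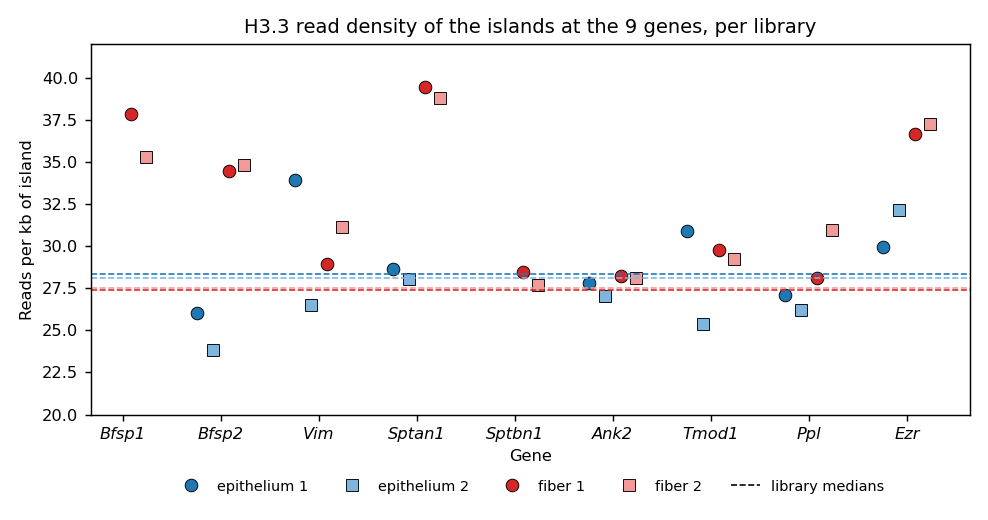
The vertical axis, which does not start at 0, gives reads per kb of island for the 9 genes, 1 symbol per library (circles for replicate 1, squares for replicate 2, blue for epithelium, red for fiber), and dashed lines give the median over all islands of each library. The fiber symbols of Bfsp1, Bfsp2, Sptan1 and Ezr lie between 34.5 and 39.5, above the library medians of 27.4 and 27.5, and Bfsp1 and Sptbn1 have no epithelium symbol.

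The larger number of fiber islands was removed by keeping the same number, 10389, in every library. Covered bases were not equalized by this, and ranking islands by reads favours long ones by construction. When the islands with most reads were kept, the covered share was higher in both fiber libraries for 9 of 9 genes, against 21.4% of all protein-coding genes, and the difference was 95.6 points for Bfsp1, 66.5 for Sptan1, 59.5 for Vim, 57.7 for Sptbn1, 56.3 for Bfsp2, 55.4 for Ank2, 50.7 for Tmod1, 46.4 for Ezr and 30.8 for Ppl. When those with most reads per kb were kept, this held for 8 of 9 genes, all but Vim, against 15.6%. That rule favours genes with dense islands by construction. The difference was then 95.6 points for Bfsp1, 73.1 for Bfsp2, 70.6 for Sptan1 and 48.2 for Ezr, and 33.1 for Tmod1, 28.0 for Vim, 21.8 for Ppl, 21.3 for Sptbn1 and 19.7 for Ank2. The median difference over all protein-coding genes was 0 in both settings.

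Gene length was compared as well, because long windows catch islands more often. Of the protein-coding genes, 14631 were within the members' range of length, 8900 to 577739 bp. Among them 51.7% had a higher covered share in both fiber libraries (9 of 9 members), 18.5% had an island in both fiber libraries and in neither epithelium library (2 of 9) and 11.6% were covered by more than 50% in both fiber libraries (9 of 9). Their median difference was 6.59 points.

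Other genes of the same structures were counted from 4 lists, 49 genes in all. The covered share was higher in both fiber libraries for 36, higher in both epithelium libraries for 1 and overlapping for 8, and 4 had no island, with a median difference of 22.3 points. Over all protein-coding genes the share higher in both fiber libraries was 45.0%, and it was 51.7% in the members' range of length. In the list of spectrins, ankyrins, adducins and protein 4.1 genes, 14 of 16 were higher in fibers and 2 had no island. Dmtn, which encodes the actin-bundling protein dematin, was covered by 0% and 8.04% in epithelium and by 90.6% and 69.1% in fibers, and Epb41l2, a protein 4.1 gene, by 0% and 1.38% against 68.0% and 77.0%. Mpp1, which encodes a membrane palmitoylated protein, had no island in any library.

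Among 12 intermediate filament and plakin genes, 7 were higher in fibers, a share near that of all genes, 4 overlapped and 1 had no island. Synm, which encodes the intermediate filament protein synemin, had no island in epithelium and was covered by 77.4% and 78.4% in fibers, the pattern of Bfsp1 at a lower level. Dst, a plakin gene, was covered by 0% and 0.487% in epithelium and by 47.2% and 56.4% in fibers. The plakin gene Evpl (64.2% and 35.6% against 60.0% and 33.9%) and the junction gene Jup (39.7% and 29.9% against 33.4% and 25.8%) overlapped between the compartments. Evpl encodes envoplakin, a relative of periplakin, and the difference between Ppl and Evpl was not tested.

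Of 15 tropomodulin, tropomyosin and actin genes, 10 were higher in fibers, 4 overlapped and 1, Tmod4, was higher in epithelium with 51.6% and 59.7% against 44.8% and 47.6%. The cytoplasmic actin gene Actg1 was covered in both compartments, by 91.4% and 75.8% in epithelium and 83.6% and 77.4% in fibers. The largest differences in this list were 42.3 points for Actn4 and 38.3 for Tpm3, below that of every member. Of 6 ezrin family genes and partners, 5 were higher in fibers. Prx was covered by 0% and 9.71% in epithelium and by 92.0% and 89.6% in fibers, Ahnak by 3.28% and 1.14% against 40.1% and 29.1%, Nf2 by 4.27% and 3.42% against 22.6% and 9.61%, and Msn (moesin) had no island. In its covered shares Prx was thus nearer to Bfsp1 than to Ppl or Ezr.

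**Figure D5:**
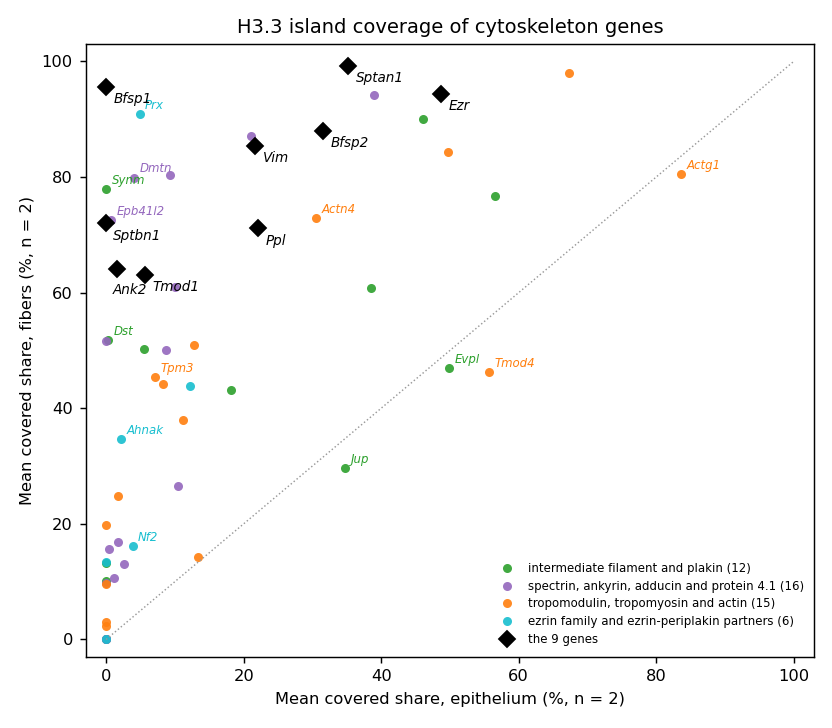
Each point is 1 gene, with the mean covered share of the 2 epithelium libraries on the horizontal axis and of the 2 fiber libraries on the vertical axis, both in percent; diamonds are the 9 genes, coloured circles the 49 genes of 4 lists, and the dotted line marks equal shares. All 9 diamonds lie above the line, and Tmod4, Jup, Evpl and Actg1 lie just under it.

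The genes most like Bfsp1 over the 4 libraries, by the Euclidean distance between their covered shares among 5568 genes with windows of similar length, were Ndrg1 (distance 4.45 points), Pla2g16 (4.60) and the transcription factor gene Maf (9.81). Their covered shares in fiber replicate 1 were 96.2%, 96.1% and 94.9%, and in epithelium replicate 1 no island was called at any of them. In epithelium replicate 2, where Bfsp1 had none, islands covered 4.37% of Ndrg1, 0% of Pla2g16 and 9.76% of Maf. Those most like Bfsp2, among 4119 genes, were Zfp395 (5.75), Cntfr (7.27) and Igfbp7 (8.05), with 27.7%, 33.1% and 31.4% in epithelium replicate 1 and 84.7%, 88.3% and 93.8% in fiber replicate 1.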

How the data were processed

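The 4 H3.3 ChIP-seq libraries were mapped by the authors with BWA to mm10 as reads of 75 nt, and islands were called per library with SICER (window 200 bp, gap 600 bp, false discovery rate 0.01). The deposited lists give the coordinates of an island and its read count, not normalized. Filters on duplicates and whether the input was subtracted are not given in the sources used here. Deposited positions count from 0 with both ends included and are given here counting from 1.

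An island counted with at least 1 bp in a window (gene body in GENCODE vM21 with 5 kb on each side). Reads per kb are the reads of whole overlapping islands over their summed length. Depth is unknown. The 2 libraries per compartment limit the precision, and no interval was computed. The 9 genes, the 4 pathway lists and the 6 marker lists were chosen with earlier results of these data known. All members were named, and from each pathway list the 2 genes with the largest and the 2 with the smallest difference between the compartments; likeness took the 3 nearest genes with a window 0.67 to 1.5 times as long. One item of this rule is not reported here. Sptbn5 was dropped, since GENCODE does not class it as protein-coding. Upstream sequences came from the RefSeq promoter table, and 12 of 12 equalled the genome.

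Single values were compared by the exact two-sided permutation test, and counts and medians carry no test. Alternatives left out each library, equalized the number of islands, changed the window, the overlap, the island threshold, the background, the scaling and the measure of density, and blocked by replicate. Calculations used Python 3.11.15, numpy 2.4.6, scipy 1.17.1 and matplotlib 3.10.9. Counts of islands and covered bases equalled those of bedtools 2.31.1 in 36 of 36 gene and library pairs, and on simulated data 200 of 200 windows with planted islands were recovered.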

Additional observations from a re-analysis of the deposited data

How the results depend on the processing

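The mean covered share was higher in fibers for every member under all 108 combinations of member and alternative, with differences from 12 to 100 points. The count of members higher in both fiber libraries, 9 of 9, was 8 with the same number of islands by reads per kb (all but Vim). It was also 8 within 5 kb of the gene start (all but Ank2). The median difference, 62.5 points, was 56.3 with the same number of islands by reads, 33.1 by reads per kb, 53.4 with islands of at least median density (reads per kb) in their library and 32.9 within 5 kb of the gene start. There the order of the members changed, with 89 points for Tmod1, 79.3 for Bfsp1, 20 for Sptan1, 15 for Bfsp2 and 12 for Ank2. Leaving out each library in turn gave 57.1 to 63.7. The median ratio of reads per kb, 1.11, was 1.20 with the same number of islands by reads, 1.23 at the gene start and 0.293 after division by the library's total in islands, and 1.06 to 1.16 without each library. The 7 members with islands in both epithelium libraries became 4 with islands of at least median density. The 5 of 7 members with more reads per kb in fibers became 2 of 4 with such islands, 0 of 7 after division by the total and 3 of 7 with the longest island alone, and 5 to 7 without each library (7 without epithelium replicate 1). Without each library, 9 of 9 kept islands in fibers and a higher covered share, 7 of 9 islands in epithelium, and 8 to 9 a longer island. By construction, leaving out a library cannot lower these counts or that for reads per kb. The 9 of 9 were therefore fixed in advance, as was the sign of each member's difference in covered share. Of single members, the ratio of Ank2 was 0.999 with the same number of islands by reads, 0.995 with islands of at least median density and 0.971 for the longest island. Tmod1 and Vim, whose compartments overlapped, lay on either side of 1, with 0.956 to 1.16 for Tmod1 and 0.885 to 1.13 for Vim without each library and 0.998 for Tmod1 at an overlap of 50%. Divided by the total, the ratios were 0.368 for Bfsp2, 0.367 for Sptan1, 0.273 for Ank2, 0.293 for Ppl and 0.316 for Ezr, which follows from the larger total of the fiber libraries. The cause of the other shifts was not tested.

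The replicate block, which set each fiber library against the epithelium library of the same number, left the median difference at 62.5 and the counts at 9, 8 and 5 for covered share, longest island and reads per kb. By construction the block leaves differences between means unchanged, so that these could not have moved, here or among the combinations counted above. Nor can it lower the counts, so that the 9 was fixed and the 8 and 5 could only have risen. Across 14147 genes the deviations of same-numbered libraries in covered share had r = 0.00635. Whether libraries of the same number came from the same lenses or batch is not given. A correlation of covered shares cannot decide it.

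Only islands were analysed, so that signal below the calling threshold is not seen in either compartment. The part of depth in the difference between the compartments was not tested, because depth is unknown. With 2 libraries per compartment the smallest exact permutation p is 0.33.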

Other observations

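Markers of other cell types were counted in the same way, beside 45.0% of all protein-coding genes with a higher covered share in both fiber libraries. Of 6 retina markers, 2 had a higher covered share in both fiber libraries, 2 overlapped and 2 (Crx and Nrl) had no island. Of 6 pigment cell markers, 4 had no island (Tyr, Tyrp1, Mlana and Rpe65), 1 was higher in fibers and 1 overlapped. Of 6 endothelial markers, 3 had no island (Kdr, Tek and Emcn) and 3 were higher in fibers. Of 6 macrophage or leukocyte markers, 3 had no island (Ptprc, Tyrobp and C1qa), 2 were higher in fibers and 1 overlapped. Over all protein-coding genes, 30.4% and 35.4% had an island in epithelium and 54.5% and 60.7% in fibers. In the epithelium libraries islands were called for 3 and 2 of the retina markers, none of the pigment cell markers, 2 and 2 of the endothelial markers and 2 and 3 of the macrophage or leukocyte markers. In the fiber libraries the numbers were 2 and 3, 1 and 2, 3 and 3, and 2 and 3. Cd68 was the most covered of these markers, with 78.2% and 93.4% in epithelium and 100% in each fiber library. Cldn5 was covered by 43.8% and 0% in epithelium and 80.6% and 47.3% in fibers, and Gnat1 by 2.05% and 24.5% in epithelium and 56.7% and 35.7% in fibers. With 5 kb on each side, the windows of Cd68 and Cldn5 are 11.9 and 11.4 kb long and mostly flank. The part of other cells in the values of the 9 genes was not tested.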
